A study of Homo sapiens with 18 samples.

Results

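The vacuolar H+-ATPase (V-ATPase) genes described here are 10 genes chosen by name from the STAR gene counts. The choice was made with earlier results of these data known, and other V0 and V1 genes are described apart from them. ATP6AP1, ATP6AP2, ATP6V0A1, ATP6V0A2, ATP6V0B and ATP6V0C encode accessory and V0 subunits and are called the membrane members (6 genes). ATP6V1A, ATP6V1B2, ATP6V1C1 and ATP6V1E1 encode subunits of the cytosolic V1 sector and are called the V1 members (4 genes). They were 10 of the 25433 gene symbols in the table. All 10 passed the filter on low counts in every comparison.

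The RNA came from HEK293doxERN2 cells, a human embryonic kidney line that carries Flag-tagged human ERN2 under the control of doxycycline. Without doxycycline ("No ERN2") 3 libraries were made from cells given vehicle and 3 from cells stressed with 200 nM thapsigargin for 3 hours. The same 2 treatments, again with 3 libraries each, were given to cells that had received 10 ng/mL of doxycycline (low ERN2) or 100 ng/mL (high ERN2) for 24 hours, which makes 18 libraries in 6 groups. ERN2, or IRE1β, is an ER stress sensor with an RNase domain that is normally found in mucus-producing epithelium, and thapsigargin causes ER stress by blocking the calcium pump of the ER. All 6 groups, the uninduced cells included, carry the transgene, and no group received doxycycline without it, so an effect of doxycycline and one of ERN2 cannot be told apart. Nothing in the labels says whether the 3 libraries of a group are separate cultures, so the p-values measure the spread between these libraries only, which may be technical.

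The V-ATPase is a rotary proton pump that acidifies lysosomes, endosomes, the Golgi and secretory vesicles. Its V1 sector hydrolyses ATP in the cytosol, and its V0 sector carries protons across the membrane. The mRNAs of accessory subunits and of V0 subunits that cross the membrane are translated at the ER, where V0 is assembled. V1 subunits are made on free ribosomes and join V0 later. Among the membrane members, ATP6AP1 (Ac45) and ATP6AP2 (the prorenin receptor) are accessory proteins with a signal peptide, ATP6V0A1 and ATP6V0A2 are forms of the large a subunit that sets where the pump resides, and ATP6V0C and ATP6V0B are the c and c″ subunits of the rotating proteolipid ring. Among the V1 members, ATP6V1A is the catalytic subunit, ATP6V1B2 is its non-catalytic partner, ATP6V1E1 belongs to the peripheral stalks and ATP6V1C1 links the stalks to the a subunit and is needed for holding V1 and V0 together.

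Gene counts summed to 14876416 to 24652240 per library, and the members held between 227 and 6378 counts each in a library. Levels are given as CPM, the counts of a gene scaled to the size of the library by TMM over all 18 libraries. ERN2 itself was at 9.10, 6.57 and 7.71 CPM in the uninduced, vehicle-treated libraries, at 22.5, 27.1 and 55.9 CPM in those with 10 ng/mL and at 252, 309 and 249 CPM in those with 100 ng/mL. Under thapsigargin it was at 14.2, 10.4 and 12.0 CPM in uninduced libraries, at 32.1, 53.9 and 112 CPM in those with 10 ng/mL and at 272, 175 and 175 CPM in those with 100 ng/mL. In both treatments the doses did not overlap. The extraction label names colon crypt epithelium, whereas the other labels name the HEK293 line. All 6 HEK293 markers had counts, but so did every gene of the other marker lists, so the levels are given. VIM was between 1336 and 2372 CPM, KRT8 between 380 and 755, KRT18 between 129 and 295 and NEFL between 66.5 and 123. NEFM was between 16.4 and 31.2 CPM and PAX2 only between 1.20 and 4.35 CPM. The summed level of the HEK293 list was between 2010 and 3531 CPM over all groups. Of 6 colon markers MUC2, VIL1, CDH17 and KRT20 stayed at or below 0.243 CPM, while CDX2 was at 3.36 to 8.83 CPM and LGR5 at 8.53 to 35.5 CPM. The summed level of the colon list was 26.0 to 39.7 CPM in uninduced vehicle-treated libraries and 18.8 to 26.8 CPM in those with 100 ng/mL. Under thapsigargin it was 28.9 to 34.5 CPM and 13.9 to 24.0 CPM, and its part in the results was not tested. Leukocyte (3 genes) and endothelial markers (3 genes) summed to at most 0.352 and 2.67 CPM. In bulk RNA, fewer cells expressing a gene and less of its RNA per cell cannot be told apart.

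**Figure D1:**
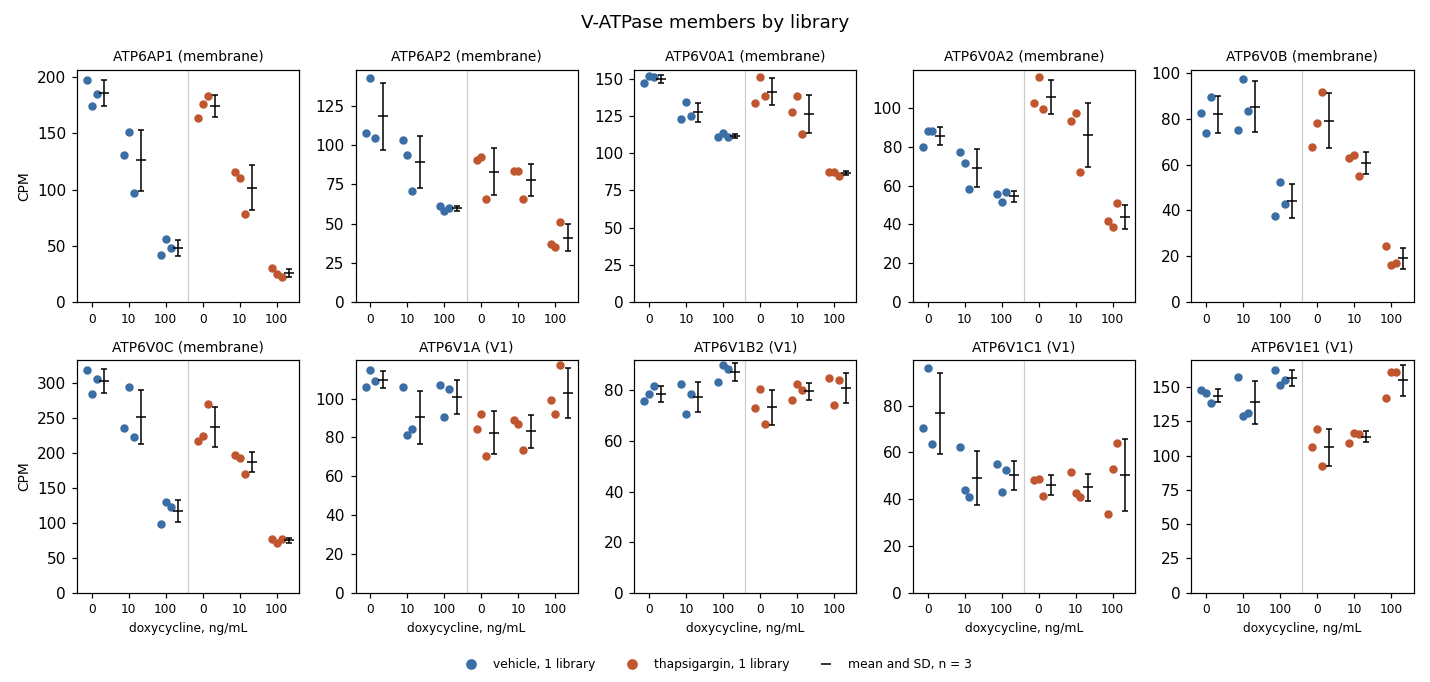
V-ATPase members by library. Each panel plots one gene in CPM against the doxycycline dose in ng/mL, with vehicle-treated libraries at the left and thapsigargin-treated libraries at the right, 1 point per library and mean and SD (n = 3) as bars. In the 6 membrane panels the libraries at 100 ng/mL lie below all uninduced libraries of the same treatment, whereas in the 4 V1 panels only ATP6V1C1 under vehicle does so.

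In vehicle-treated cells at high ERN2, all 6 membrane members and none of the 4 V1 members passed the test as lower. The V1 member ATP6V1C1 was just outside the threshold, with a larger fall (-0.66) than the membrane member ATP6V0A1 (-0.47). The log2 fold changes of the membrane members ran from -1.98 to -0.47, with a median of -0.98, whereas the V1 members ran from -0.66 to 0.11, with a median of -0.04. A gene is counted as changed where edgeR's quasi-likelihood test gave a Benjamini-Hochberg adjusted p under 0.01 over all genes tested. Of the 14444 genes tested 7.49% were lower and 0.838% higher at 100 ng/mL, and the median over all genes was -0.01. In 16.1% of all genes the 3 induced libraries lay below the 3 uninduced ones without overlap, and in 19.7% above.

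ATP6AP1, which binds V0 and aids its assembly in the ER, had the largest change among the members. It was at 198, 174 and 185 CPM in the uninduced libraries and at 41.6, 55.7 and 47.7 CPM at 100 ng/mL. The highest induced library was thus far below the lowest uninduced one, and the change was -1.98 (SE 0.13, adjusted p = 5.6e-07), so that its level fell by 74.7%. ATP6AP2, the other accessory member, went from 108, 143 and 104 CPM to 61.3, 58.0 and 59.7 CPM, a change of -1.03 (SE 0.13, adjusted p = 1.3e-04). Its uninduced libraries were spread widely, with replicate 2 the highest, but did not overlap with the narrow range of the induced ones. In the proteolipid ring, ATP6V0C went from 319, 285 and 306 CPM to 99.0, 130.2 and 122 CPM. This was a change of -1.41 (SE 0.12, adjusted p = 5.9e-06), without overlap. ATP6V0B went from 82.6, 73.7 and 89.6 CPM to 37.5, 52.2 and 42.8 CPM, a change of -0.93 (SE 0.14, adjusted p = 5.6e-04), again without overlap. The a subunits moved least among the membrane members. ATP6V0A2, the form known from the Golgi and endosomes, went from 80.3, 88.5 and 88.2 CPM to 55.6, 51.4 and 56.5 CPM, a change of -0.69 (SE 0.11, adjusted p = 5.9e-04). ATP6V0A1 went from 147, 152 and 151 CPM to 111, 113 and 111 CPM, so that its groups were tight and did not overlap. Its change was -0.47 (SE 0.10, adjusted p = 0.0051), and when each library was dropped in turn it passed in 1 of 6 fits, that without replicate 2 at 100 ng/mL, with an adjusted p of up to 0.031 in edgeR for the others. The other 5 membrane members passed in all 6.

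The V1 members did not follow. ATP6V1A was at 106, 115 and 109 CPM without and 107, 90.6 and 105 CPM with 100 ng/mL of doxycycline, in overlapping ranges, with a 95% interval of the log2 change from -0.40 to 0.06. ATP6V1B2 was at 75.7, 78.5 and 81.9 CPM and 83.5, 90.0 and 88.5 CPM, with an interval from -0.12 to 0.33. ATP6V1E1 was at 148, 145 and 139 CPM and 163, 152 and 155 CPM, with an interval from -0.13 to 0.29. In both of these genes the 3 induced libraries lay above the uninduced ones, by amounts that did not pass the test (adjusted p = 0.51 and 0.61, edgeR). ATP6V1C1 was the exception, at 70.6, 96.2 and 63.4 CPM against 55.1, 43.1 and 52.2 CPM. Its induced libraries lay below all uninduced ones, of which replicate 2 was the highest, and its value of -0.66 (SE 0.16, adjusted p = 0.013) was just outside the threshold. DESeq2 put it inside, with an adjusted p of 0.0011.

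The IRE1 RNase is known to cut XBP1 mRNA at a pair of loops with the core CNGCAG, where N is any base, and in one of them the core reads CUGCAG. The latter motif was counted in the GENCODE transcript of each member. It had 4 copies in ATP6AP1, the most reduced member, and 4 in ATP6V0A2, but 0 in ATP6AP2 and ATP6V0C, which also fell. ATP6V1E1 had 3, as did ATP6V1A and ATP6V1C1, ATP6V1B2 had 2, and ATP6V0A1 and ATP6V0B had 1 each. Of all protein-coding transcripts 82.5% hold it. CNGCAG, which includes it, was in all 10 members, with 1 to 11 copies each, and in 95.3% of these transcripts. Motifs held by most transcripts cannot tell by their presence which members might be cut. Whether any copy lies in a loop, or any member is cut, was not tested. The copies in the coding sequence of the member with the largest change and of a member that did not fall are shown as windows of 30 bases from coding exons on GRCh38, with the motif in capitals.
ATP6AP1, across the junction of exons 2 and 3, plus strand: gtgctgctgttcCTGCAGgacaagctgagc
ATP6AP1, exon 4, chrX:154432332-154432361, plus strand: ctgaccacttacCTGCAGgagaagctcggg
ATP6V1E1, across the junction of exons 6 and 7, minus strand: ctctggtaaaggCTGCAGtgcagaaggcaa

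RefSeq promoters (GRCh38.p14, windows of 300 bases around the start) were found for 7 of the 10 members, the 6 membrane members and ATP6V1E1. They were searched on both strands for CACGTG, the core of the site of MiT/TFE factors, for TGACGTG, the core of a site of XBP1 and ATF6, and for CCAAT, the site of NF-Y. The first 2 motifs end in the same letters and can overlap. CACGTG was in 1 of the 6 membrane promoters and in 7.43% of 27305 promoters. TGACGTG was in 0 of the 6 and in 2.00% of all, and CCAAT in 5 of the 6 and in 35.7% of all, as well as in that of ATP6V1E1. The promoter with CACGTG was that of ATP6V0B, and it held the motif 2 times, in capitals below. A match of letters is no measured site.
ATP6V0B promoter, chr1:43974891-43974938, plus strand: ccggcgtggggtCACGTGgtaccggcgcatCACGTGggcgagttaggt

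Under thapsigargin, too, high ERN2 went with lower mRNA of all 6 membrane members and of none of the V1 members. The membrane members ranged, against uninduced cells that received the same stress, from -2.76 to -0.71 with a median of -1.47, and in none of them did the groups overlap. Of the 14358 genes tested here 9% were lower and 1.53% higher, 20.4% were lower without overlap and 16.1% higher without overlap, and the median over all genes was 0.04. None of the 4 V1 members passed the test, and all 4 values were above 0, with a median of 0.22.

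ATP6AP1 was again the most reduced member, from 164, 177 and 183 CPM to 30.0, 25.0 and 22.4 CPM, a change of -2.76 (SE 0.16, adjusted p = 7.6e-07) that left 0.148 of its uninduced level. ATP6V0B came next, from 67.8, 78.4 and 91.6 CPM to 24.4, 16.0 and 17.1 CPM, a change of -2.04 (SE 0.19, adjusted p = 1.7e-05). ATP6V0C went from 217, 224 and 269.9 CPM to 77.4, 71.0 and 76.6 CPM, a change of -1.66 (SE 0.14, adjusted p = 7.8e-06). In each of these 3 genes the lowest uninduced library was more than 2 times the highest induced one. ATP6V0A2 went from 103, 116 and 99.4 CPM to 41.8, 38.9 and 51.1 CPM, a change of -1.28 (SE 0.16, adjusted p = 1.0e-04). ATP6AP2 went from 90.5, 92.6 and 65.9 CPM to 36.9, 35.0 and 51.0 CPM, a change of -1.03 (SE 0.19, adjusted p = 0.0023). ATP6V0A1 went from 134, 151 and 138 CPM to 87.5, 87.7 and 84.8 CPM, a change of -0.71 (SE 0.13, adjusted p = 0.0026). When each library was dropped in turn, these last 2 genes each passed in 3 of 6 fits, and lost the call without uninduced replicate 1 or 2 or induced replicate 2, with adjusted p up to 0.025 for ATP6AP2 and 0.023 for ATP6V0A1 in edgeR, and the other 4 membrane members passed in all 6.

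Among the V1 members under thapsigargin, ATP6V1E1 had the largest value. It was at 107, 119 and 92.5 CPM without and 142, 161 and 161 CPM with 100 ng/mL, so the induced libraries lay above the uninduced ones, but its 0.54 (SE 0.15, adjusted p = 0.023) did not pass the test. DESeq2 put it inside, with an adjusted p of 0.0055. ATP6V1A was at 84.3, 92.3 and 70.7 CPM and 99.1, 92.2 and 117 CPM, with an interval from -0.03 to 0.66. Its induced replicate 2 was level with the highest uninduced library. ATP6V1B2 was at 73.0, 80.5 and 66.6 CPM and 84.9, 74.1 and 84.0 CPM, with an interval from -0.18 to 0.46. ATP6V1C1, at 48.2, 48.6 and 41.2 CPM and 33.7, 52.9 and 64.0 CPM, had the widest spread of the 4 among the induced libraries. Its interval ran from -0.34 to 0.58, and its sign turned without the induced replicate 3, to -0.09.

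**Figure D2:**
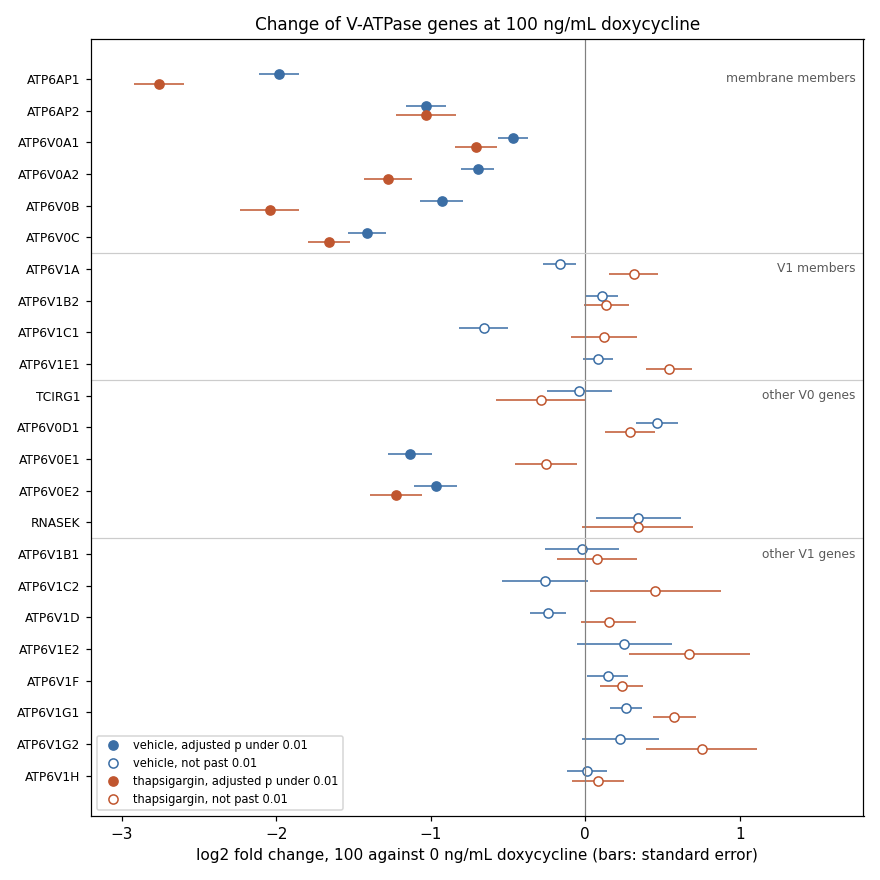
Change of V-ATPase genes at 100 ng/mL doxycycline. Points are log2 fold changes against uninduced cells under the same treatment (vehicle or thapsigargin), bars are standard errors, and filled points passed an adjusted p of 0.01 in edgeR. All 6 membrane members are filled and below 0 in both treatments, and all 4 V1 members are open.

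The rest of the complex was counted from lists of its other genes. Of 7 other V0 genes 5 were tested, and 2 of them were lower in vehicle-treated cells at 100 ng/mL. The median of the 5 was -0.04 under vehicle and -0.26 under thapsigargin, against -0.98 and -1.47 for the 6 membrane members. The 2 were ATP6V0E1 and ATP6V0E2, which encode the small e subunits of the membrane sector. ATP6V0E1 went from 49.1, 64.7 and 48.6 CPM to 26.9, 22.6 and 26.7 CPM, a change of -1.14 (SE 0.14, adjusted p = 1.2e-04). ATP6V0E2 went from 61.7, 60.2 and 63.9 CPM to 26.5, 35.5 and 35.7 CPM, a change of -0.97 (SE 0.14, adjusted p = 3.0e-04). Neither gene's groups overlapped. Under thapsigargin ATP6V0E2 was lower as well (-1.23, SE 0.17, adjusted p = 2.6e-04), and 1 of the 5 passed. ATP6V0E1 then did not pass, at 24.4, 27.1 and 18.9 CPM against 16.2, 19.9 and 23.2 CPM (-0.26, SE 0.20, adjusted p = 0.39), in libraries whose uninduced level was already below the vehicle level. TCIRG1 and RNASEK, at low levels, were tested too and did not pass in either treatment. Under vehicle the mean of TCIRG1 was 6.16 CPM without and 6.15 CPM with 100 ng/mL, and that of RNASEK 1.83 and 2.41 CPM. Under thapsigargin these means were 5.98 and 4.87 CPM for TCIRG1 and 1.41 and 1.76 CPM for RNASEK. ATP6V0D1 counts as V0 but lies on its cytosolic face and crosses no membrane. It was at 98.6, 84.0 and 82.9 CPM without and 110.1, 149.6 and 117 CPM with 100 ng/mL in vehicle-treated cells, where all 3 induced libraries were above the uninduced ones and the value of 0.46 (SE 0.14, adjusted p = 0.040) did not pass.

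Of 9 other V1 genes 8 were tested, and none passed at 100 ng/mL in either treatment, with values from -0.26 to 0.26 under vehicle and from 0.07 to 0.75 under thapsigargin. Of 7 genes for assembly and reassembly of the pump, such as the ER assembly factors VMA21, TMEM199 and CCDC115, all were tested and none passed in either treatment, with medians of -0.09 and 0.32. Of 4 genes for MiT/TFE factors, transcription factors that act on lysosomal and V-ATPase genes, 3 were tested and none passed, with medians of 0.18 and -0.24. At 10 against 0 ng/mL none of the genes of these lists passed in either treatment, and from 10 to 100 ng/mL under vehicle ATP6V0E2 did (-0.86, SE 0.14, adjusted p = 0.0073). By DESeq2, at 100 against 0 ng/mL, 7 members were lower under vehicle, where 8.96% of all genes with an adjusted p were, and under thapsigargin 6 were lower and 1 higher, against 11.9% and 4.99% of all genes.

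Both classes come from the same library, so the difference between their mean log2 CPM depends little on how libraries are scaled. This difference, membrane minus V1, was 0.49 ± 0.091 (SD, n = 3) in uninduced vehicle-treated cells and 0.45 ± 0.25 at 10 ng/mL, and it was -0.45 ± 0.17 at 100 ng/mL. Under thapsigargin it was 0.78 ± 0.16 in uninduced cells, 0.38 ± 0.13 with 10 ng/mL and -1.08 ± 0.20 with 100 ng/mL. All 12 libraries at 0 or 10 ng/mL were above 0 and all 6 at 100 ng/mL were below it. The difference changed by -0.93 under vehicle and by -1.86 under thapsigargin between 0 and 100 ng/mL, against a pooled SD of 0.18 between libraries. With the accessory genes ATP6AP1 and ATP6AP2 left out the change under vehicle was -0.73, and with the median of each class in place of the mean it was -1.16. The other V0 genes, such as ATP6V0D1, ATP6V0E1 and ATP6V0E2, did not enter this difference.

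**Figure D3:**
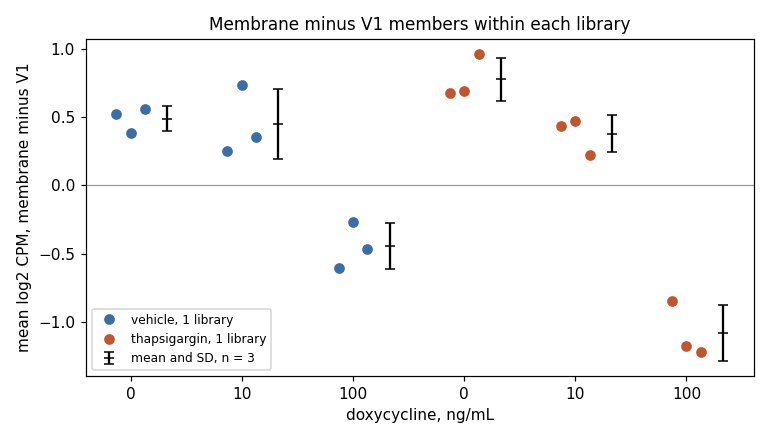
Membrane minus V1 members within each library. The y axis is the mean log2 CPM of the 6 membrane members minus that of the 4 V1 members, by doxycycline dose and treatment, with 1 point per library and mean and SD (n = 3) as bars. The libraries at 100 ng/mL are between -0.60 and -0.27 under vehicle and between -1.22 and -0.84 under thapsigargin, and the others are between 0.22 and 0.96.

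At 10 ng/mL none of the 10 members passed in vehicle-treated cells, in a comparison that called 0.193% of 14497 genes in edgeR. At an unadjusted p under 0.05, 7 members were lower, 5 of them membrane members, and 16.5% of all genes were lower. DESeq2 called 1 of the 10, and 3.32% of all genes. The member was ATP6AP1, at 130.4, 151 and 97.1 CPM and thus below all uninduced libraries, with -0.56 (SE 0.14, adjusted p = 0.076) in edgeR and an adjusted p of 0.0084 in DESeq2. ATP6AP2, ATP6V0A1 and ATP6V0A2 also did not overlap with the uninduced libraries and were at -0.41, -0.24 and -0.31, which did not pass, while 15.3% of all genes were lower without overlap. The ring subunits overlapped, with ATP6V0C at 237, 295 and 223 CPM (-0.27) and ATP6V0B at 75.2, 97.4 and 83.5 CPM (0.06). ATP6V1C1, at 62.4, 43.9 and 41.1 CPM, was below all uninduced libraries with -0.65 (SE 0.18, adjusted p = 0.081), close to its value at 100 ng/mL. Both doses are set against the same uninduced libraries. Without replicate 1 at 10 ng/mL, which had the least ERN2 of its group, ATP6AP1, ATP6V1A and ATP6V1C1 passed, together with 2743 genes in all. The 3 libraries at 10 ng/mL differed in induction, and in replicate 3, which had the most ERN2, 4 of the 6 membrane members and 1 of the 4 V1 members had their lowest level. The share of all genes with this pattern was not counted, and a link to ERN2 was not tested.

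From 10 to 100 ng/mL under vehicle, ATP6AP1 (-1.41, SE 0.18, adjusted p = 0.0028), ATP6V0C (-1.13, SE 0.14, adjusted p = 0.0028) and ATP6V0B (-0.97, SE 0.15, adjusted p = 0.0047) fell. They were 3 of the 6 membrane members, against 2.43% of 14549 genes that were lower. The other 3 did not pass, with ATP6AP2 at -0.61, ATP6V0A2 at -0.37 and ATP6V0A1 at -0.21. In all 6 the libraries at 100 ng/mL lay below those at 10 ng/mL, as they did in 12.9% of all genes. The 3 calls were lost without replicate 2 at 10 ng/mL and without replicate 1 or 3 at 100 ng/mL, with adjusted p of up to 0.039. The 4 V1 members had a median of 0.14, none below 0, and none passed.

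Under thapsigargin, 10 ng/mL gave no call among the 10 members or among the 14509 genes tested in edgeR, and DESeq2 called 1 member and 0.339% of all genes. At an unadjusted p under 0.05, 3 membrane members and 2.99% of all genes were lower. ATP6AP1 was at 116, 111 and 78.7 CPM, below all uninduced libraries, with -0.79 (SE 0.15, adjusted p = 0.29) in edgeR and an adjusted p of 0.00097 in DESeq2. ATP6V0B (-0.39), ATP6V0C (-0.35) and ATP6V0A2 (-0.31) also lay below without overlap, in 5.4% of all genes, and none passed. In these 2 groups the libraries of the same replicate number deviated together (r of 0.70 to 0.80 in the 3 pairs), and with the replicate number as a block in edgeR 4 members were lower, as were 2.53% of all genes. In this edgeR fit they were ATP6AP1 (adjusted p = 4.3e-06), ATP6V0C (0.0039), ATP6V0A2 (0.0064) and ATP6V0B (0.0065). All 6 membrane members were lower in each of the 3 same-numbered pairs, but ATP6AP2 in replicate 3 only at 65.81 against 65.89 CPM. No label pairs these libraries, and the share of all genes lower in all 3 pairs was not counted. At 10 ng/mL all 6 membrane members had their lowest level in replicate 3, which held the most ERN2 with 112 CPM, as did 2 of the 4 V1 members. Among the uninduced libraries replicate 3 was also the lowest for ATP6AP2, ATP6V0A2 and all 4 V1 members. It was not the lowest there for ATP6AP1, ATP6V0A1, ATP6V0B and ATP6V0C. How many of all genes were lowest in replicate 3 was not counted, and a link to ERN2 was not tested.

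Thapsigargin alone, in uninduced cells, lowered 1 of the 10 members in the fit without a replicate block. This was ATP6V1C1, which went from 70.6, 96.2 and 63.4 CPM to 48.2, 48.6 and 41.2 CPM (-0.73, SE 0.15, adjusted p = 0.0044), against 4.74% of 14397 genes lower and 6.45% higher. The call was lost without replicate 1 or 2 of either group (adjusted p of up to 0.013 in edgeR), and without the thapsigargin-treated replicate 3 ATP6V0C passed as well. ATP6V1E1 (-0.43, SE 0.11, adjusted p = 0.015) and ATP6V1A (-0.40, SE 0.12, adjusted p = 0.025) were lower without overlap and did not pass. In the membrane class ATP6AP2 (-0.50) and ATP6V0C (-0.35) were lower without overlap, ATP6V0A2 was higher without overlap (0.32), and none passed. Groups were lower without overlap in 20% of all genes and higher in 20%. Same-numbered libraries of these 2 groups correlated over 0.1 in 2 of 3 pairs (r of -0.07 to 0.56). With the replicate number as a block in edgeR, 5 members were lower and 1 higher, among 3571 genes called, of which 1726 were lower. Of the listed genes that are not members, thapsigargin lowered ATP6V0E1 (-1.20, SE 0.16, adjusted p = 2.2e-04), ATP6V0E2 (-0.52, SE 0.11, adjusted p = 0.0042) and VMA21 (-0.55, SE 0.12, adjusted p = 0.0047) and raised MITF (0.88, SE 0.15, adjusted p = 0.0013) in these cells. With 10 or 100 ng/mL of doxycycline it moved none of the listed genes past the threshold.

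At 10 ng/mL thapsigargin gave no call among the members (1.45% of 14607 genes called in edgeR), with 3 lower at an unadjusted p under 0.05 (11% of all genes) and 1 called by DESeq2 (8.06% of all genes). The lowest values were those of ATP6V0B (-0.50, SE 0.13, adjusted p = 0.050) and ATP6V0C (-0.43, SE 0.13, adjusted p = 0.075). Same-numbered libraries of these groups correlated over 0.1 in 2 of 3 pairs (r of -0.07 to 0.81). With the replicate number as a block in edgeR, 4 members were lower and 1 higher, among 3620 genes called, of which 1666 were lower. At 100 ng/mL thapsigargin again gave no call among the members in edgeR, where 0.201% of 14427 genes were called, but all 6 membrane members lay below the vehicle-treated libraries without overlap, as 15.1% of all genes did. Of these, 5 were lower at an unadjusted p under 0.05 (12.3% of all genes), and DESeq2 called 3, with 5.61% of all genes. ATP6V0B was at 37.5, 52.2 and 42.8 CPM with vehicle and 24.4, 16.0 and 17.1 CPM with thapsigargin (-1.18, SE 0.20, adjusted p = 0.020), and ATP6AP1 at 41.6, 55.7 and 47.7 CPM and 30.0, 25.0 and 22.4 CPM (-0.88, SE 0.17, adjusted p = 0.029). ATP6V0C (-0.62), ATP6AP2 (-0.52), ATP6V0A1 (-0.35) and ATP6V0A2 (-0.29) were smaller. The V1 members had a median of 0.01 and overlapped in all 4 genes. Without replicate 1 of the thapsigargin-treated libraries at 100 ng/mL, which had the most ERN2 of its group, 3 members passed, and 2568 genes in all.

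Whether the response to thapsigargin differed between 100 ng/mL and no doxycycline was tested as an interaction over 12 libraries. None of the 10 members passed, against 0.0406% of 14768 genes. At an unadjusted p under 0.05, 3 membrane members were below 0 (9.15% of all genes) and 3 V1 members above 0 (15.6% of all genes), and DESeq2 called 2, with 2.75% of all genes. The membrane members were ATP6V0B (-1.05, SE 0.23, adjusted p = 0.049), ATP6AP1 (-0.72, SE 0.18, adjusted p = 0.065) and ATP6V0A2 (-0.53, SE 0.17, adjusted p = 0.10). The V1 members were ATP6V1C1 (0.83, SE 0.30, adjusted p = 0.12), ATP6V1A (0.53, SE 0.19, adjusted p = 0.11) and ATP6V1E1 (0.52, SE 0.16, adjusted p = 0.096). Without replicate 1 of the thapsigargin-treated libraries at 100 ng/mL, ATP6V0B, ATP6AP1 and ATP6V1C1 passed in edgeR, with adjusted p of 0.0019, 0.0038 and 0.0068, among 1286 genes in all. At 10 ng/mL the interaction gave no call among the members or the 14857 genes in edgeR, with 1 membrane member below 0 and 1 V1 member above 0 at an unadjusted p under 0.05 (1.79% and 2.68% of all genes), and DESeq2 called none of the members and 0.00968% of all genes.

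**Figure D4:**
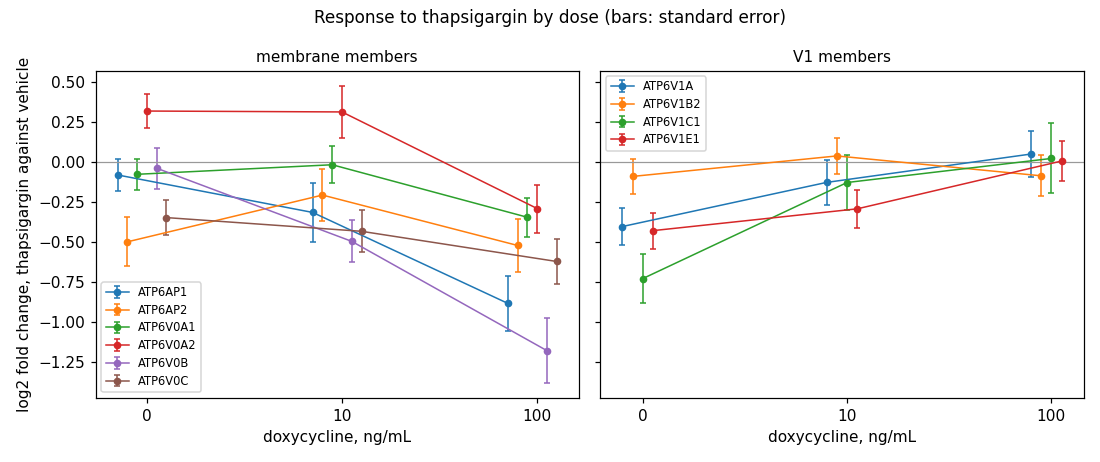
Response to thapsigargin by dose. Points are log2 fold changes of thapsigargin against vehicle at 0, 10 and 100 ng/mL of doxycycline, bars are standard errors, and lines join a gene. At 100 ng/mL the 6 membrane members are between -1.18 and -0.29 and the 4 V1 members between -0.09 and 0.05.

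Per kilobase of transcript, which lets genes be compared with each other, ATP6V0C was the most abundant member in uninduced vehicle-treated cells with 258 ± 14.5 CPM per kb (SD, n = 3). It was followed by ATP6V1E1 (103 ± 3.44), ATP6AP1 (88.5 ± 5.59), ATP6V0B (63.1 ± 6.16), ATP6AP2 (50.6 ± 9.04), ATP6V0A1 (49.6 ± 0.90), ATP6V1B2 (27.4 ± 1.08), ATP6V1A (23.9 ± 0.97), ATP6V1C1 (13.7 ± 3.08) and ATP6V0A2 (13.1 ± 0.71). In this order the ranges of ATP6V0B and ATP6AP2, of ATP6AP2 and ATP6V0A1, and of ATP6V1C1 and ATP6V0A2 overlapped. At 100 ng/mL with thapsigargin ATP6V1E1 led with 111 ± 7.89 CPM per kb, and ATP6V0C followed with 63.8 ± 2.98. ATP6V0A1 (28.6 ± 0.53) and ATP6V1B2 (28.2 ± 2.08) came next, in overlapping ranges. Below them were ATP6V1A (22.4 ± 2.84), ATP6AP2 (17.5 ± 3.73), ATP6V0B (14.8 ± 3.52), ATP6AP1 (12.3 ± 1.84), ATP6V1C1 (8.95 ± 2.73) and ATP6V0A2 (6.71 ± 0.97), each of which overlapped with the next. ATP6AP1 was thus in the eighth place there and in the third in uninduced vehicle-treated cells.

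The profile of each class over the 6 groups was set beside those of 10239 genes with a mean of at least 10 CPM, as the root mean square difference of log2 group means. ATP9A (0.043), SPPL3 (0.044) and G6PC3 (0.046) were nearest to the mean of the membrane members, and LTA4H (0.021), DDHD2 (0.024) and HNRNPK (0.027) to the mean of the V1 members. The membrane members themselves were 0.14 (ATP6V0C) to 0.44 (ATP6AP1) away from their own mean and the V1 members 0.028 (ATP6V1A) to 0.17 (ATP6V1C1) from theirs. Each likeness rests on the same 6 group means.

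All 10 members were matched to GENCODE release 29 on GRCh38. ATP6AP1 lies at chrX:154428632-154436516, ATP6AP2 at chrX:40579372-40606848, ATP6V0A1 at chr17:42458844-42522611, ATP6V0A2 at chr12:123712318-123761755, ATP6V0B at chr1:43974487-43978295, ATP6V0C at chr16:2513870-2520218, ATP6V1A at chr3:113747019-113812056, ATP6V1B2 at chr8:20197367-20226819, ATP6V1C1 at chr8:103021063-103073051 and ATP6V1E1, on the minus strand, at chr22:17592136-17628818. ATP6V0C overlaps 2 other protein-coding annotations on its own strand and has pseudogene copies, so the share of its reads assigned elsewhere is uncertain. ATP6V0A2, ATP6V0B, ATP6V1A and ATP6V1C1 overlap annotations on the opposite strand, and no source used here says whether the counting used strand. GC content of the transcripts was 40.6% to 63.6% among the membrane members and 39.7% to 46.6% among the V1 members. ATP6AP2 and ATP6V0A2, with 40.6% and 43.6%, lie within the V1 range. ATP6V0A1 (49.0%), ATP6AP1 (58.3%), ATP6V0B (60.6%) and ATP6V0C (63.6%) lie above it. With a trend of each library on GC content and length removed, an alternative chosen after the data were seen, all 6 membrane members were lower in both treatments. In that fit ATP6V1C1 was lower under vehicle as well, and ATP6V1E1 was higher under thapsigargin. The fit called more genes in all, 2660 under vehicle and 3259 under thapsigargin, in place of 1203 and 1512. Of all genes called 54.5% were lower under vehicle and 49.4% under thapsigargin, in place of 89.9% and 85.4%. The membrane minus V1 difference was not computed with the trend removed, and the part of GC content in it was not tested.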

How the data were processed

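RNA-Seq of 18 HEK293doxERN2 libraries, in 6 groups of 3 by the deposited labels, was analysed. Per the paper's methods, libraries were stranded mRNA libraries read single-end, and the authors aligned them with STAR in VIPER and tested them with DESeq2. The deposited file holds raw read counts per gene symbol (25435 rows, 28 of them turned into dates), made by the authors without normalization or filter. The submitters' processing notes name hg38, and the aligner version, annotation and strand setting are not given in the sources used here.

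Counts of the groups compared were filtered with filterByExpr (minimum count 10), scaled by TMM and put through the quasi-likelihood test of edgeR 4.0.16 in R 4.3.3. P-values were adjusted over all genes after Benjamini and Hochberg, at the study's threshold of 0.01. The standard error of a log2 fold change was derived from its F statistic, and a 95% interval uses the t quantile at the degrees of freedom of that test. CPM were scaled by TMM over the 18 libraries. The members, the lists and the named genes (the members, genes of the lists past the threshold and the nearest profiles) were chosen with earlier results of these data known. DESeq2 1.42.0, RLE factors, no filter, all 6 groups in 1 fit, a replicate block, another threshold, another prior count and each library left out were tried as alternatives. Library totals without TMM, and removal of a loess trend (span 0.3) on GC content and length, known for 93% of genes, were added after the data were seen. Same-numbered libraries correlated at -0.72 to 0.84 in their deviations (22 of 45 pairs over 0.1), and the main fits have no pairs. All 3 pairs of a comparison were over 0.1 only for 10 against 0 ng/mL under thapsigargin (0.70 to 0.80). Blocked values are given beside that result and beside those of thapsigargin at 0 and 10 ng/mL. No 2 libraries of a group were alike within counting noise (chi-square per degree of freedom of 7.33 to 63.8). An exact permutation of 3 against 3 libraries cannot give a two-sided p below 0.1. Figures were drawn with matplotlib 3.10.9.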

Additional observations from a re-analysis of the deposited data

How the results depend on the processing

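Both comparisons of 100 with 0 ng/mL kept 4 to 7 members called in every alternative, and all 6 membrane members stayed below 0. All genes called in these alternatives ran from 750 to 2660 under vehicle and from 763 to 3950 under thapsigargin. With the replicate number as a block, 4 members passed under vehicle, among 750 genes in all, and 5 under thapsigargin, among 1390. In these edgeR fits ATP6V0A1 was at an adjusted p of 0.048 and 0.012, and ATP6V0A2 at 0.011 under vehicle. Same-numbered libraries of each of these comparisons correlated over 0.1 in 1 of 3 pairs. With each library left out the member counts ran from 5 to 6 under vehicle, among 915 to 1397 genes in all. Under thapsigargin they ran from 4 to 7, among 763 to 3950 genes, and the fit with 7 was that with 3950. Comparisons with few or no calls moved more, and the numbers of all genes called in the same fit are given in brackets. At 10 against 0 ng/mL under vehicle, DESeq2 called 1 (382), no filter 2 (623), the GC and length trend 2 (138), and leaving out a library 0 to 3 (0 to 2743). Under thapsigargin the same doses gave 1 with DESeq2 (39), 4 with the block (564) and 0 without any 1 library (0). No label pairs these libraries by number, and their correlation by number was seen only in these same data. From 10 to 100 ng/mL, 0 to 4 passed without 1 library (0 to 496). Thapsigargin in uninduced cells called 1 member (1611), 3 with DESeq2 (2300), 3 with no filter (2173), 6 with the block (3571), 6 at an adjusted p of 0.05 (3260), 6 with the GC and length trend removed (2796) and 0 to 2 without 1 library (731 to 1901). At 10 ng/mL it called 0 (212), 1 with DESeq2 (1051) and 5 with the block (3620). At 100 ng/mL it called 0 (29), 3 with DESeq2 (729), 2 with no filter (299), 4 with all 6 groups in 1 fit (941), 3 at 0.05 (494), 3 with the GC and length trend removed (847) and 0 to 3 without 1 library (4 to 2568). The interaction at 100 ng/mL called 0 (6), 2 with DESeq2 (340), 1 at 0.05 (149), 2 with the GC and length trend removed (178) and 0 to 3 without 1 library (2 to 1286). The cause of these moves was not tested.

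The change of the membrane minus V1 difference under vehicle at 100 ng/mL was -1.16 with class medians, -0.73 without ATP6AP1 and ATP6AP2 and -1.02 to -0.86 without 1 library. With class medians its change with thapsigargin at 100 ng/mL was -0.42, and the interaction -0.61. Of the 100 member values, 23 turned sign in at least 1 alternative, each with an adjusted p of at least 0.090 there and a size of at most 0.35. Among them were the values of ATP6V1A at 100 ng/mL under vehicle with the GC and length trend removed (0.059), of ATP6V1C1 at 100 ng/mL under thapsigargin with it (-0.0060) and without replicate 3 (-0.086, in a range of -0.086 to 0.36), and of ATP6V0B at 10 ng/mL under vehicle with it (-0.25) and without replicate 2 of either group (-0.018 and -0.044, in a range of -0.044 to 0.13). The trend also moved the share of all calls that were lower from 28.6% to 58.0% at 10 against 0 ng/mL under vehicle, and for thapsigargin from 20.3% to 33.5% at 10 ng/mL, from 10.3% to 59.3% at 100 ng/mL and from 83.3% to 51.1% in the interaction. Over all alternatives other than leaving out a library these 4 shares ran from 23.5% to 75.1%, 19.7% to 46.0%, 0% to 75.2% and 51.1% to 100%. Library totals without TMM, like the trend an alternative added after the data were seen, gave 45.1% for thapsigargin at 100 ng/mL and shifted the median over all genes of the interaction at 100 ng/mL by -0.18, with 0 members called. Each group holds 3 libraries, and every member had at least 227 counts in each.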
